A study of Bos taurus with 38 samples.

Results

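Cattle cumulus-oocyte complexes were examined for 4 genes of the response to estradiol and epidermal growth factor (EGF): *ESR2* (ENSBTAG00000004498), *EGFR* (ENSBTAG00000011628), *NCOA3* (ENSBTAG00000007489) and *NRIP1* (ENSBTAG00000047293). They are 4 of the 27607 Ensembl genes counted, and were chosen by measured values, namely the correlation of their abundance in cumulus cells with that of *GSTA1* in the oocyte of the same complex. RNA of 19 single oocytes and of the cumulus cells that surrounded each of them was sequenced separately, which gave 38 libraries. The oocytes had been sorted by Brilliant cresyl blue (BCB), a vital dye that glucose-6-phosphate dehydrogenase reduces to a colourless form: 9 complexes held a stained, BCB positive oocyte and 10 an unstained, BCB negative one. The complexes were aspirated from antral follicles of ovaries collected at an abattoir, and neither the labels nor the study ties a complex to an animal, so that p-values measure the spread between complexes. A cumulus library is the pool of the cells around 1 oocyte, and fewer cells of a type and less RNA per cell cannot be told apart in it.

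*ESR2* encodes estrogen receptor beta, a nuclear receptor that binds estradiol and regulates transcription of its target genes. *NCOA3* encodes a coactivator that nuclear receptors recruit when they carry their ligand, and *NRIP1* encodes a corepressor that competes for the same receptors and is needed for ovulation in the mouse. *EGFR* encodes the receptor tyrosine kinase through which EGF-like ligands, released in the follicle after the surge of luteinizing hormone, cause cumulus expansion and the resumption of meiosis.

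All 4 genes passed the abundance filter (over 2 CPM, counts scaled to the library size, in at least 9 of the 19 libraries) in cumulus cells, where 12313 genes passed, and in oocytes, where 12753 did. Library totals ran from 1103200 to 10430148 counts in cumulus cells and from 8886070 to 29810354 in oocytes. In single cumulus libraries *ESR2* had 28 to 693 counts, *EGFR* 89 to 3560, *NCOA3* 39 to 588 and *NRIP1* 65 to 1735, and the smallest count of any of the 4 genes in an oocyte library was 38 (*NRIP1*). The BCB negative cumulus libraries stood apart in depth and composition: their median total was 2252270 counts against 5853820 in BCB positive ones, the genes of mitochondrial DNA took a median of 7.59% of their counts against 1.38%, and 4 of them held under 2000000 counts. The complex numbers fell into 3 runs, 6 to 24 (3 BCB positive, 1 BCB negative), 65 to 74 (6 and 3) and 86 to 91 (0 and 6), so that for the last run the class and the run cannot be told apart.

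Levels are given as CPM after TMM scaling over the 38 libraries (trimmed mean of M-values, a factor per library that equalises the bulk of genes). Without transcript lengths they compare samples for 1 gene, never genes with each other. The labels of the libraries were checked against marker genes: all 11 cumulus and granulosa cell markers with a symbol, of 12 listed, were higher in cumulus cells, and all 3 oocyte markers with a symbol (*ZP2*, *ZP3* and *DAZL*, of 12 listed) were higher in oocytes. The median sum of the 11 cumulus markers was 20010 and 16783 CPM in BCB positive and BCB negative cumulus libraries, against 149 and 88.6 in the oocyte libraries.

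Cumulus cells and oocytes differed in all 4 genes, in different directions and to very different degrees. *EGFR* and *NRIP1* belonged mainly to cumulus cells, *ESR2* was moderately higher there, and *NCOA3* was higher in the oocyte. The comparison asks where each component of the response is transcribed or stored. It was tested with edgeR's quasi-likelihood test over 4 groups, with false discovery rates (Benjamini-Hochberg adjusted p) below 0.01 counted as differences. In that fit 88.8% of 14785 genes differed, 42.3% being higher and 46.5% lower in cumulus cells, so that a difference as such sets none of the 4 genes apart.

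*EGFR* ranged from 195 through a median of 251 to 382 CPM in BCB positive cumulus cells and from 122 through 213 to 286 in BCB negative ones. In oocytes it ranged from 16.5 through 19.2 to 36.6 (BCB positive) and from 11.3 through 22.6 to 35.0 (BCB negative). The lowest cumulus library therefore lay above the highest oocyte library, as it did for 21.5% of all genes tested (26.3% had the reverse order and 47.8% either). The cumulus level was 10.5-fold that of the oocyte (log2 difference 3.40 ± 0.14 SE, edgeR adjusted p = 4.87e-24), and within single complexes the ratio ran from 5.17 in complex 6 to 17.3 in complex 69.

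Of the 4 genes, *NRIP1* had the highest ratio between cumulus cells and oocytes. Its level ran from 98.7 through 129 to 186 CPM in BCB positive cumulus cells and from 84.7 through 123 to 145 in BCB negative ones, against 3.19 through 6.08 to 16.2 and 3.94 through 6.002 to 9.10 in the oocytes of the same classes. The ranges did not overlap, and the gene was 19.2-fold higher in cumulus cells (log2 difference 4.27 ± 0.16, edgeR adjusted p = 7.61e-26). The ratio within a complex was smallest in complex 72, at 11.5, and largest in complex 19, at 34.5.

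*ESR2* was higher in cumulus cells in 19 of 19 complexes, although the ranges of both compartments overlapped. It ran from 35.4 through 41.6 to 74.4 CPM in BCB positive cumulus cells and from 31.2 through 47.2 to 57.3 in BCB negative ones. The oocytes held 15.4 through 25.1 to 37.1 (BCB positive) and 18.8 through 27.9 to 29.8 (BCB negative). The cumulus level was 1.76-fold higher (log2 difference 0.81 ± 0.11, edgeR adjusted p = 1.57e-08). On library totals alone, which moved the median difference of all genes from -0.15 to -0.56, the *ESR2* difference was 0.41 (adjusted p = 0.00176, edgeR) and the cumulus level was the higher one in 15 of 19 complexes.

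*NCOA3* went the other way. Cumulus cells held 38.6 through 49.9 to 69.9 CPM (BCB positive) and 37.8 through 63.1 to 74.2 (BCB negative), whereas the oocytes held 65.4 through 91.6 to 161 and 31.7 through 95.2 to 174. The oocyte was higher in 16 of 19 complexes, and the ranges of both compartments overlapped in either BCB class. The oocyte level was 1.84-fold that of cumulus cells (log2 difference -0.88 ± 0.16, edgeR adjusted p = 2.80e-06). Among the 9 complexes of the run from 65 to 74 alone the difference was -0.26 ± 0.19 and did not pass (adjusted p = 0.205, edgeR).

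**Figure D1:**
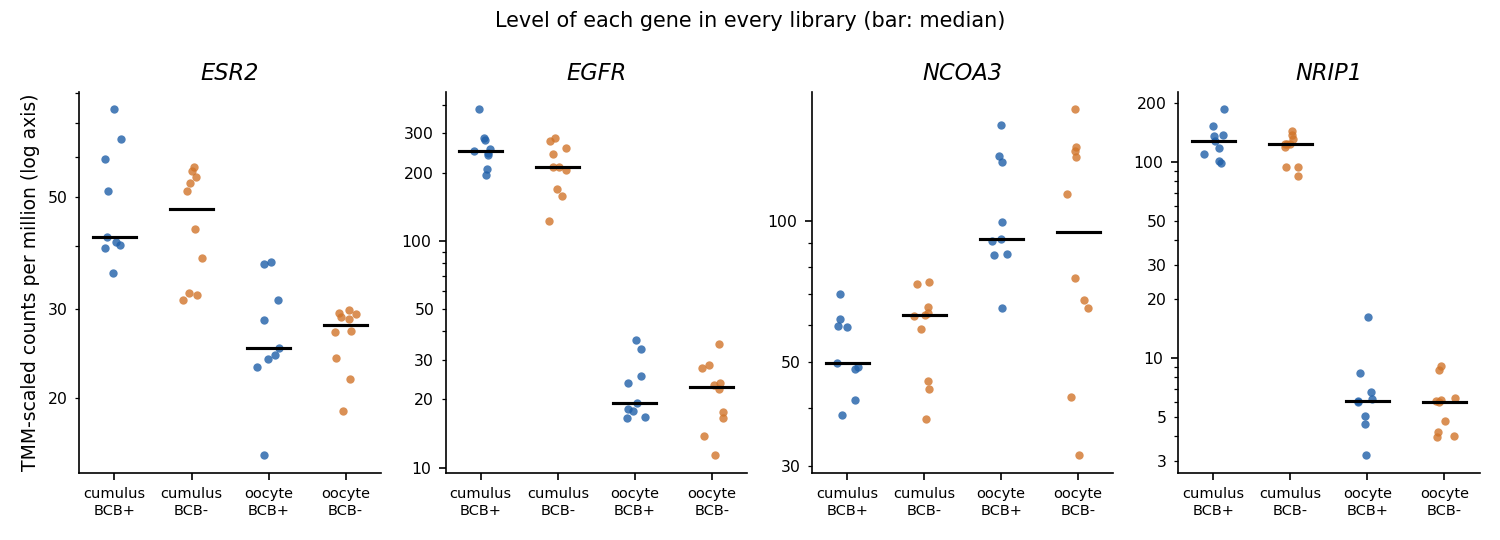
Level of ESR2, EGFR, NCOA3 and NRIP1 in TMM-scaled CPM (log axis, own scale in each panel), with 1 point per library (9 BCB positive and 10 BCB negative complexes in each compartment) and a bar at the median. EGFR and NRIP1 separate cumulus cells from oocytes without overlap, ESR2 is moderately higher in cumulus cells, NCOA3 is higher in most oocytes, and the BCB classes overlap within each compartment.

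The oocyte levels were set beside those of the cumulus markers, since remnants of cumulus cells on an oocyte would carry their transcripts into its library. Over the 11 markers the oocyte median was 0.103% (*INHA*) to 3.44% (*CYP19A1*) of the cumulus median, with a median of 0.234%. The corresponding share was 4.88% for *NRIP1*, 9.09% for *EGFR*, 62.9% for *ESR2* and 154% for *NCOA3*, each above that of every marker. *FSHR*, the receptor that defines granulosa cells, had no count in 2 of 19 oocyte libraries, *FST* in 1 and *FOXL2* in 2. *AMHR2* had none in 4 and *KRT18* in 9, but their cumulus medians were only 5.80 and 5.44 CPM, so these zeros say little. *INHBA*, *INHA*, *NR5A2*, *CYP19A1*, *HSD17B1* and *SERPINE2* had counts in every oocyte library, and the lowest oocyte level of *SERPINE2* was 43.3 CPM. The oocyte library of complex 72 had the largest marker sum, 2986 CPM.

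Across the 19 oocyte libraries the levels of 3 of the 4 genes moved with that marker sum. The coefficients were r = 0.675 for *NRIP1* (permutation p = 0.00321; rho = 0.400, permutation p = 0.0906), r = 0.65 for *EGFR* (permutation p = 0.00189; rho = 0.521, permutation p = 0.0235) and r = 0.626 for *ESR2* (permutation p = 0.00551; rho = 0.732, permutation p = 0.00077). Without the 2 libraries farthest from the median sum r was 0.187, 0.418 and 0.537, so that the relation of *NRIP1* rested on those libraries. Within the run from 65 to 74 the same coefficients were 0.735, 0.807 and 0.708. *NCOA3* gave r = -0.048 (permutation p = 0.842; rho = 0.109, permutation p = 0.655). Oocyte depth moved with some of the same levels: r with the log10 total was 0.651 for *ESR2* (permutation p = 0.00222) and 0.521 for *EGFR* (permutation p = 0.0230), with rho = 0.714 (permutation p = 0.00103) and 0.386 (permutation p = 0.103) and r = 0.67 and 0.625 without the 2 farthest libraries. These are unadjusted values from 24 relations computed for the 4 genes, and the part of marker RNA or depth in the oocyte levels was not tested further.

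The surrounding pathway genes were read from lists, of which only those with a symbol in the study's supplementary tables could be matched. Of the genes that make or break down estradiol, 3 of 9 were matched: *HSD17B1*, which reduces estrone to estradiol, and *CYP19A1*, the aromatase, were higher in cumulus cells by 6.35 ± 0.64 and 4.49 ± 0.36 (log2), and *HSD17B12* was lower (-0.44 ± 0.07). *ESR2* was the only one of 6 estrogen receptor genes that could be matched. Of 5 estradiol targets, 4 were higher in cumulus cells and none lower, where 42.3% of all genes tested were higher and 46.5% lower. The largest differences were those of *IGFBP4* (5.92 ± 0.67) and *GREB1* (4.60 ± 0.19), a receptor cofactor and classical estrogen target.

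Of 12 listed coactivators 6 were matched, and 5 of these, *NCOA3* included, were lower in cumulus cells, among them *NCOA4* (-2.03 ± 0.12) and *NCOA2* (-1.81 ± 0.12), and *NCOA7* alone was higher (5.24 ± 0.21). Of all genes tested, 46.5% were lower and 42.3% higher in cumulus cells. The median over the list was -0.72 against -0.15 over all genes tested. The 6 corepressors were divided, with *NRIP1* and *SAFB* (1.45 ± 0.13) higher in cumulus cells and *NCOR1* (-0.91 ± 0.13), *TBL1XR1* (-0.72 ± 0.11) and *HDAC3* (-0.30 ± 0.10) lower, and the median was -0.02.

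On the EGF side, receptor and early targets were higher in cumulus cells and a ligand in the oocyte. The counts below stand beside 42.3% of all genes tested that were higher and 46.5% that were lower in cumulus cells. Of 4 ERBB receptor genes 2 were matched, and *ERBB4* did not pass beside *EGFR* (-0.13 ± 0.27, edgeR adjusted p = 0.642). *HBEGF*, a membrane-anchored EGF-like ligand of *EGFR*, was 102-fold higher in oocytes (log2 difference -6.67 ± 0.29), and the sheddase *ADAM17* did not pass (-0.27 ± 0.14, adjusted p = 0.0588, edgeR). The 3 matched immediate early targets, *FOS* (5.78 ± 0.73), *EGR1* (5.44 ± 0.55) and *IER3* (3.83 ± 0.24), were all higher in cumulus cells. Of 11 adaptors and kinases 3 were higher in cumulus cells and 7 lower: *STAT3* (-4.45 ± 0.14) and *MAP2K1* (-3.35 ± 0.11), a kinase that activates ERK, were lowest, while *MAPK3* (0.68 ± 0.12) and *SOS2* (0.51 ± 0.11) lost the call on library totals alone (0.28 and 0.10). Among 4 feedback inhibitors, the phosphatases *DUSP1* (3.81 ± 0.25) and *DUSP6* (2.05 ± 0.33) were higher in cumulus cells, and *SPRY2* (-2.28 ± 0.29) and *LRIG1* (-1.35 ± 0.19) were higher in oocytes.

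**Figure D2:**
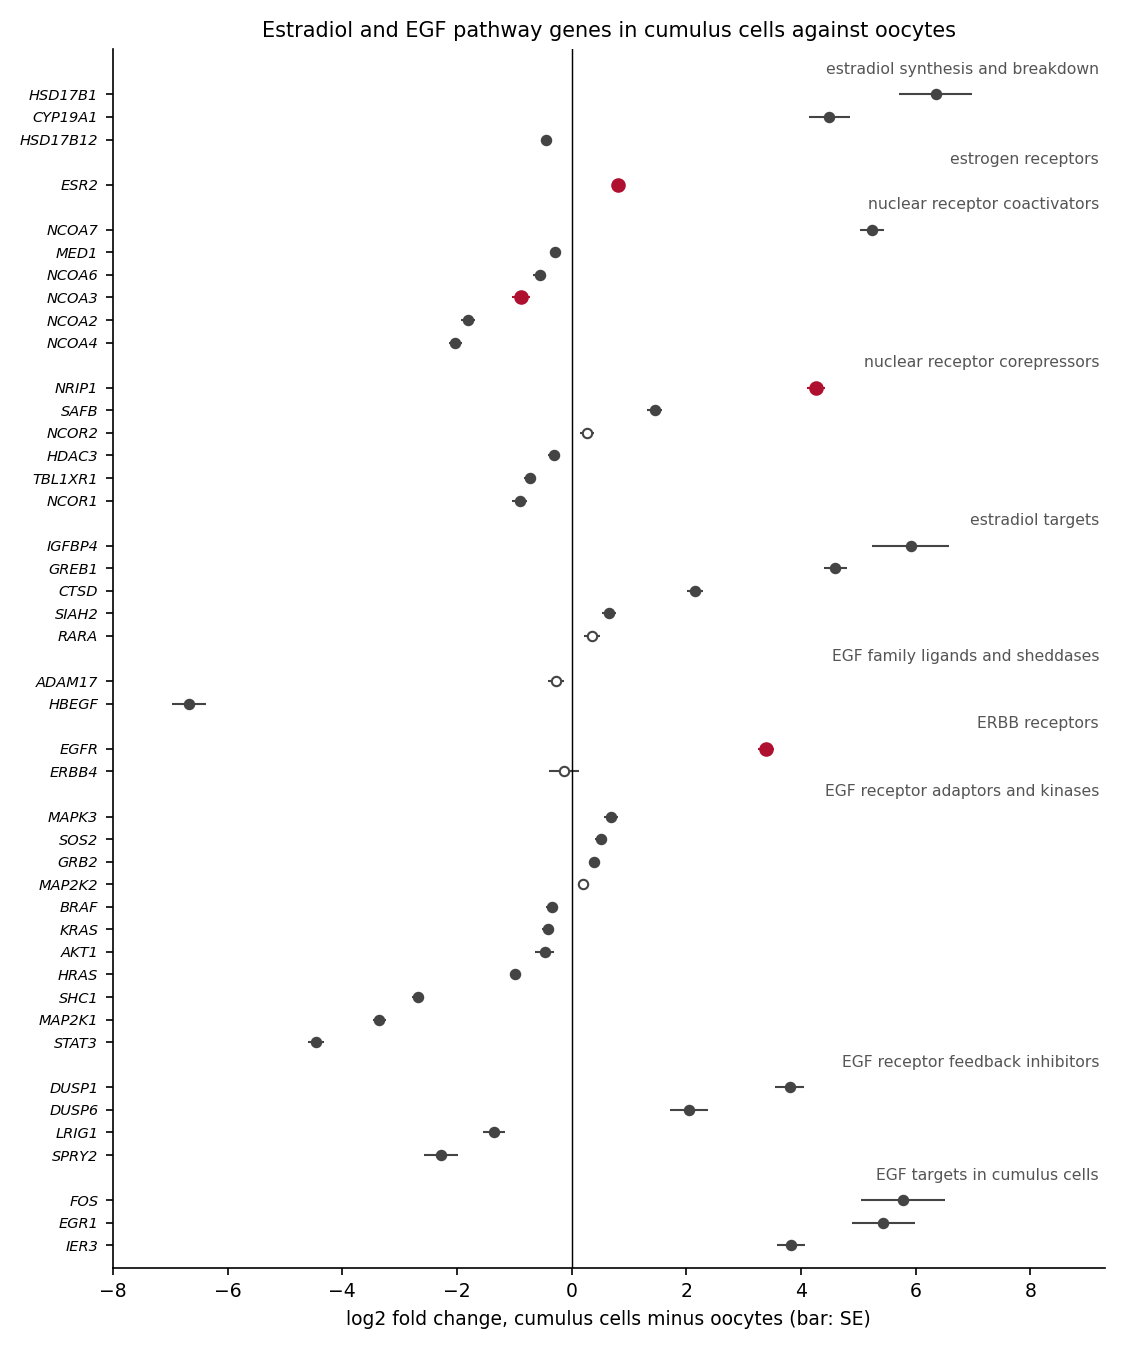
Log2 fold change of cumulus cells minus oocytes (19 libraries each) for every listed gene with a symbol, with its standard error, filled where the edgeR adjusted p was below 0.01 and red for ESR2, NCOA3, NRIP1 and EGFR. NRIP1 (4.27) and EGFR (3.40) lie far to the cumulus side, ESR2 at 0.81, and NCOA3 at -0.88 lies among coactivators that are mostly on the oocyte side.

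None of the 4 genes passed the test between BCB classes in cumulus cells. The cumulus counts tested are those by which the genes were chosen, on a scale that follows the library total. That total differed between the classes, so the values and their p are a description. No absence of a BCB effect is read from them. Relative to BCB negative complexes, BCB positive cumulus cells differed on the log2 scale by 0.12 ± 0.17 for *ESR2* (95% interval -0.23 to 0.47, adjusted p = 0.749, edgeR), by 0.24 ± 0.15 for *EGFR* (-0.08 to 0.56, adjusted p = 0.408), by -0.17 ± 0.15 for *NCOA3* (-0.48 to 0.13, adjusted p = 0.553) and by 0.11 ± 0.14 for *NRIP1* (-0.18 to 0.39, adjusted p = 0.720). Of all genes tested, 0.56% passed, 5 (0.0406%) being higher and 64 (0.52%) lower in BCB positive cumulus cells. No gene of the pathway lists was among them. Without complex 72 the difference was 0.025 for *ESR2*, 0.15 for *EGFR* and 0.024 for *NRIP1*, and leaving out any 1 complex gave -0.24 to -0.13 for *NCOA3*.

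The size of these differences, and for *NCOA3* the direction, depended on the scaling. TMM factors ran from 1.09 to 1.27 in the 9 BCB positive and from 0.542 to 1.16 in the 10 BCB negative cumulus libraries. On library totals alone the median difference of all genes moved from -0.01 to 0.46, and 1601 genes were called higher and 103 lower. The values for *EGFR* (0.71 ± 0.21, adjusted p = 0.0139, edgeR), *ESR2* (0.60 ± 0.20, adjusted p = 0.0215) and *NRIP1* (0.59 ± 0.18, adjusted p = 0.0159) then lay above that median, and *NCOA3* turned positive but lay below it (0.35 ± 0.16, adjusted p = 0.0919). None of the 4 reached the threshold on that scale either. The genes were chosen by these cumulus counts, on a scale that follows the library total, and the median total was higher in BCB positive libraries. The part of that choice in these values was not tested. Neither their p nor their place beside the median gene is read as a result.

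**Figure D3:**
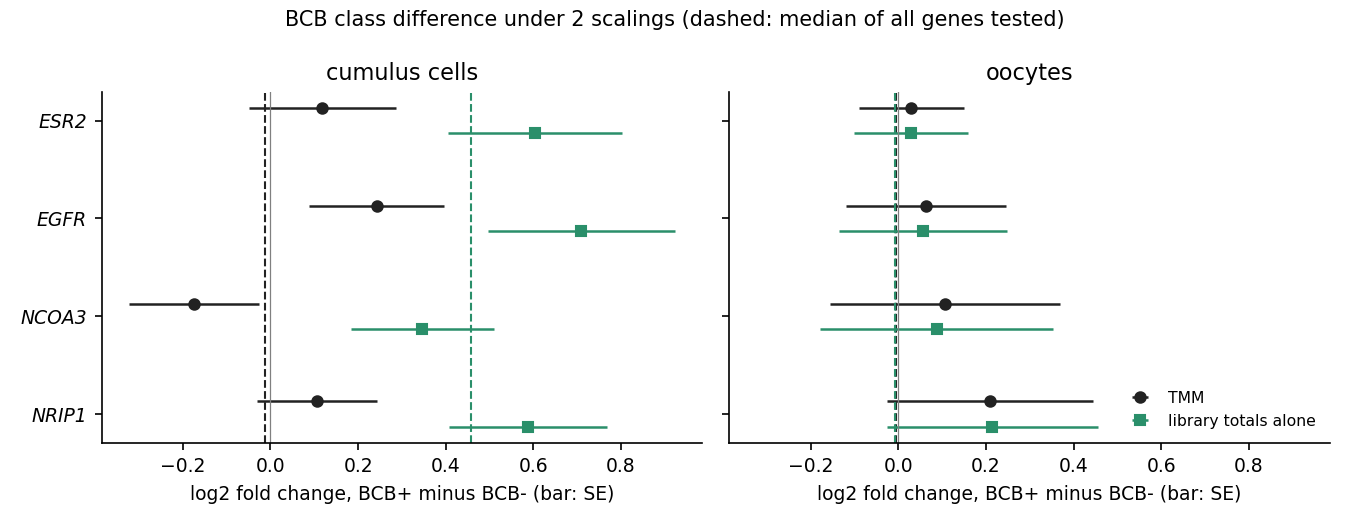
Log2 fold change of BCB positive minus BCB negative complexes for the 4 genes, with standard errors, in cumulus cells (left) and oocytes (right), under TMM scaling (circles) and library totals alone (squares). The dashed lines mark the median of all genes tested, which moves from -0.01 to 0.46 in cumulus cells, and the 4 genes move with it. In oocytes both scalings give nearly the same values.

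In oocytes the BCB classes differed by 0.03 ± 0.12 for *ESR2* (95% interval -0.22 to 0.28), by 0.06 ± 0.18 for *EGFR* (-0.31 to 0.44), by 0.11 ± 0.26 for *NCOA3* (-0.44 to 0.65) and by 0.21 ± 0.23 for *NRIP1* (-0.28 to 0.69), and none passed (adjusted p = 0.941 to 0.984, edgeR). Here 0% of 12753 genes passed the edgeR test, 711 had an unadjusted p under 0.05, and DESeq2 called 1 gene. The intervals were widest for *NCOA3* and narrowest for *ESR2*. Leaving out any 1 complex gave -0.023 (without complex 70) to 0.10 for *ESR2*, -0.024 (without 72) to 0.15 for *EGFR*, 0.0053 (without 65) to 0.23 for *NCOA3* and -0.021 (without 72) to 0.30 for *NRIP1*. Within the run from 65 to 74 the differences were larger, 0.38 ± 0.16 for *ESR2*, 0.71 ± 0.26 for *EGFR*, 1.05 ± 0.33 for *NCOA3* and 0.41 ± 0.40 for *NRIP1*, and none passed (adjusted p = 0.122 to 0.592, edgeR). With the run as a covariate they were 0.16, 0.38, 0.69 and 0.18 (adjusted p = 0.397 to 0.837, edgeR). All 7 cumulus markers that passed the filter in oocytes had values above 0 (median 1.91, against -0.005 over all genes tested), none past the threshold. These markers share libraries and are not 7 separate results. The sum over all 11 markers was 55.8 to 2986 CPM (median 149, highest in complex 72) in BCB positive oocytes. In BCB negative oocytes it was 71.7 to 731 (median 88.6).

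The BCB difference in cumulus cells minus that in oocytes was 0.11 ± 0.22 for *ESR2*, 0.20 ± 0.26 for *EGFR*, -0.22 ± 0.31 for *NCOA3* and -0.10 ± 0.28 for *NRIP1*, and none of the 4 passed (adjusted p = 0.758 to 0.913, edgeR), where 1.7% of 14785 genes did (0.0473% higher and 1.65% lower). With the complex as a replicate block in the same fit, 2 genes passed the threshold in place of 251, and the 4 values were 0.13, 0.21, -0.33 and -0.02. Within the run from 65 to 74 the difference for *NCOA3* was -1.65 ± 0.38 (adjusted p = 0.0101, edgeR), just outside the threshold. The cumulus part of the values of the 4 genes comes from the counts by which they were chosen, so these values are a description.

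*HBEGF* was the only gene of the pathway lists past the threshold in this comparison (-2.32 ± 0.50, edgeR adjusted p = 0.00464). Its oocyte medians were 571 CPM in BCB positive and 595 in BCB negative complexes, and its cumulus medians 1.78 and 9.24, with ranges of 1.09 to 4.73 and 1.68 to 42.9 that overlapped and rested on 3 to 55 counts a library. In cumulus cells alone the difference was -2.51 ± 0.53, which missed the threshold with edgeR (adjusted p = 0.0128) and passed it with DESeq2 (-2.60, adjusted p = 1.94e-05), on library totals (-1.95, adjusted p = 0.00457), with the joint rule of a likelihood-ratio test and DESeq2 (-1.98, adjusted p = 0.0006) and with the run as a covariate (-3.29, adjusted p = 0.00154). With the log10 library total as a covariate it was -1.33 (adjusted p = 0.448, edgeR), and without the cumulus libraries under 2000000 counts -1.67 (adjusted p = 0.0556). With the replicate block it no longer passed (-2.11 ± 0.48, adjusted p = 0.0669, edgeR), nor without the 4 cumulus libraries under 2000000 counts (-1.53 ± 0.38, adjusted p = 0.0241), nor with no abundance filter (-2.21 ± 0.50, adjusted p = 0.0102). It also missed the threshold in turn without complex 24, 66, 68, 69 or 71, the values leaving out any 1 complex being -2.48 to -1.91 (edgeR adjusted p = 0.000922 to 0.0151). Of the oocyte markers, *ZP2* (-5.42 ± 1.07, adjusted p = 0.00213) and *ZP3* (-6.07 ± 1.07, adjusted p = 0.00135) passed in the same comparison with edgeR and *DAZL* did not (-0.71 ± 1.08, adjusted p = 0.810). The sum of *ZP2*, *ZP3* and *DAZL* was 0.107 to 1.97 CPM in BCB positive cumulus libraries and 0.718 to 105 in BCB negative ones, with *ZP2* at 0 in 7 of the 19 and *ZP3* and *DAZL* in 3 each. The median cumulus level in the BCB negative class was 1.62% of the oocyte level for *HBEGF*, 0.17% for *ZP2*, 0.119% for *ZP3* and 2.15% for *DAZL*. Markers of stroma (*COL1A2*, 1 of 6 listed) and endothelium (*VWF* and *TEK*, 2 of 5) were themselves higher in oocytes, and in cumulus cells summed to 0 to 0.908 and 1.09 to 5.85 CPM in BCB positive and 0.239 to 39.9 and 1.54 to 55.1 in BCB negative complexes. *COL1A2* passed in the comparison of *HBEGF* (-3.74 ± 0.84, adjusted p = 0.00567, edgeR), and *VWF* (-0.90 ± 0.66) and *TEK* (-1.72 ± 0.48) did not. The part of oocyte RNA in the cumulus value of *HBEGF* was not tested.

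The spread between cumulus samples comes from the same cumulus counts by which the 4 genes were chosen. On the scale of that choice they followed the library total closely. The part of the choice in their spread was not tested, so the values are a description and no trait of the genes is read from them. The SD of log2 abundance over BCB positive and BCB negative complexes was 0.37 and 0.36 for *ESR2*, 0.28 and 0.36 for *EGFR*, 0.28 and 0.33 for *NCOA3*, and 0.30 and 0.25 for *NRIP1*, where the median gene had 0.35 and 0.56. In BCB negative cumulus cells 5.93% of genes had a smaller biological coefficient of variation than *NRIP1*, 7.67% than *NCOA3*, 11.2% than *ESR2* and 27.3% than *EGFR*. In BCB positive cumulus cells the corresponding shares were 32.6%, 28.1%, 51.1% and 31.6%, so that *ESR2* lay near the median gene there.

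In oocytes the picture was mixed. *NCOA3* was among the more variable genes in BCB negative oocytes, with an SD of 0.78 against 0.46 in BCB positive ones, and 91.3% of genes had a smaller coefficient of variation there. *ESR2* was steadier in BCB negative oocytes (0.16 against 0.33), *EGFR* had 0.46 against 0.38, *NRIP1* had 0.42 against 0.58, and the median gene had 0.32 in either class. A limma test of the absolute deviations from the class median called 0% of the genes in either compartment. In cumulus cells 1377 of 12313 genes had an unadjusted p under 0.05, more than that share of the genes. In oocytes 378 of 12753 did, fewer than that share. *NCOA3* in oocytes had an unadjusted p of 0.0594 in that limma fit. Simulated data showed that this adjusted threshold was rarely reached even for large differences in spread, so that the absence of calls says little about these genes.

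Part of the spread of *NCOA3* in BCB negative oocytes lay between runs of complex numbers. The 3 BCB negative oocytes of the run from 65 to 74 held 31.7, 42.1 and 68.1 CPM, and the 6 of the run from 86 to 91 held 65.3 to 174, with a median of 139, the ranges overlapping. Depth moved with the same runs: those 3 libraries held 9389803 to 13424068 counts and those 6 held 19195112 to 29810354, and over the 10 BCB negative oocytes r with the log10 total was 0.678 for *NCOA3* and 0.833 for *ESR2*, given as a description. The part of depth in these levels was not tested. The 6 BCB positive oocytes of the run from 65 to 74 held 65.4 to 161. Within that run the BCB positive minus BCB negative difference was 1.05 ± 0.33 (adjusted p = 0.122, edgeR) in oocytes and -0.56 ± 0.20 (adjusted p = 0.205) in cumulus cells, neither past the threshold. *ESR2* showed the same order of runs with less spread, 18.8 to 23.9 in the 3 BCB negative oocytes of the run from 65 to 74 and 27.1 to 29.8 in the 6 of the run from 86 to 91. *EGFR* in the same oocytes held 11.3 to 17.6 and 16.5 to 35.0.

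**Figure D4:**
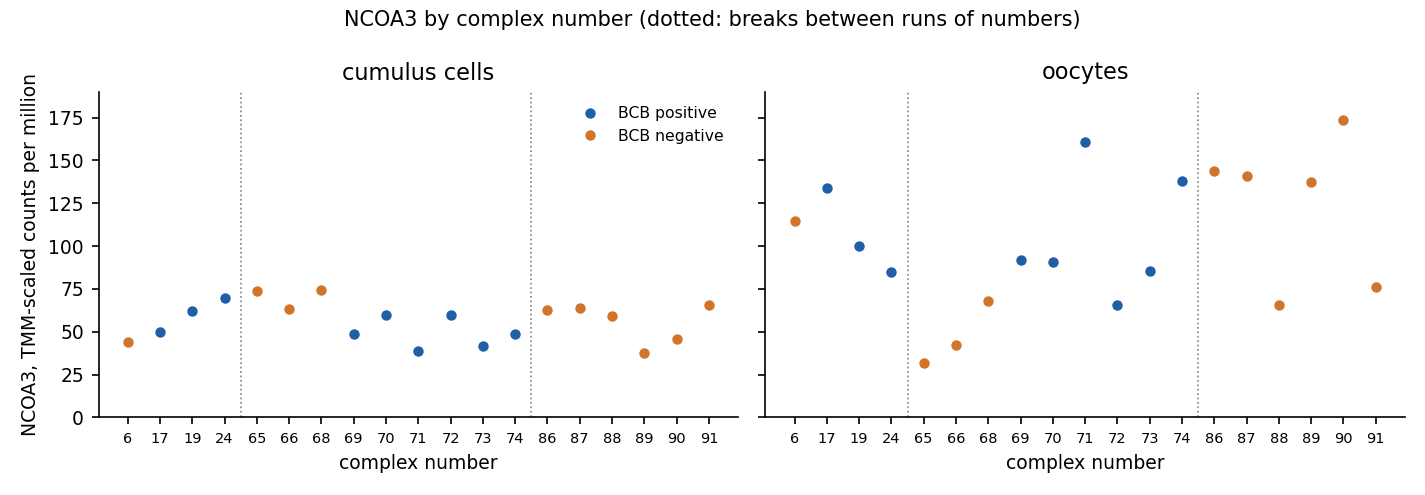
NCOA3 in TMM-scaled CPM (linear axis from 0) by complex number in cumulus cells (left) and oocytes (right), coloured by BCB class, with dotted lines between the 3 runs of numbers. The BCB negative oocytes of complexes 65, 66 and 68 hold 31.7 to 68.1, those of complexes 86 to 91 hold 65.3 to 174, and the cumulus values stay between 37.8 and 74.2.

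The oocyte and the cumulus cells of a complex were then compared for the same gene. The cumulus values are those by which the 4 genes were chosen, for following an oocyte transcript on a scale that tracks the library total, so the coefficients are a description and no p is given. Over 19 complexes *NCOA3* was inversely related between the compartments (r = -0.605, rho = -0.525). Dropping the 2 complexes whose oocyte value was most distant from the median left r = -0.533, and r was -0.565 within BCB positive, -0.621 within BCB negative complexes and -0.782 within the run from 65 to 74. On library totals alone the coefficient was -0.225 (rho = -0.275). On that scale r was -0.514 within BCB positive, -0.344 within BCB negative complexes and -0.052 within the run from 65 to 74. The relation over 19 complexes and within the run therefore depended on the scaling, and that within BCB positive complexes changed little. The cumulus level of *NCOA3* under TMM was also inversely related to the log10 total of its library (r = -0.519, rho = -0.551, and r = -0.401 without the 2 farthest libraries).

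*NRIP1* was positively related between oocyte and cumulus cells (r = 0.567, rho = 0.477), but dropping the 2 most distant complexes left r = 0.309, and dropping complex 72 left 0.324, so that the relation rested on those complexes. Complex 72 held the highest *NRIP1*, *EGFR* and *ESR2* of any library in both compartments. *EGFR* gave r = 0.408 (rho = 0.314) with 0.134 without the 2 farthest complexes, and *ESR2* r = 0.221 (rho = 0.144) with 0.330. Within the run from 65 to 74 r was 0.723 for *NRIP1*, 0.784 for *EGFR* and 0.398 for *ESR2*.

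**Figure D5:**
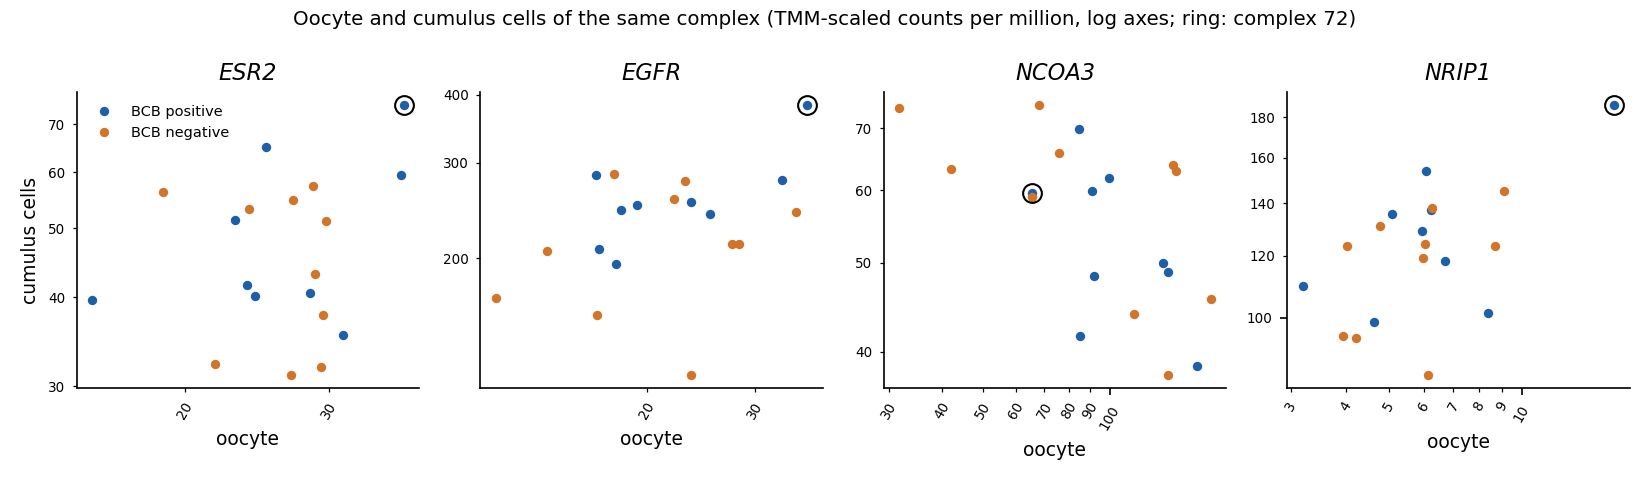
Each gene in the oocyte (horizontal) and the cumulus cells (vertical) of the same complex, in TMM-scaled CPM on log axes, with 1 point for each of 19 complexes coloured by BCB class and a ring around complex 72. NCOA3 slopes downward (r = -0.605) and NRIP1 upward (r = 0.567, and 0.324 without complex 72).

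Within a compartment the 4 genes moved together only in part. In cumulus cells the TMM-scaled log2 levels gave r = 0.654 for *ESR2* with *EGFR*, 0.534 for *ESR2* with *NRIP1*, 0.516 for *EGFR* with *NRIP1*, 0.367 for *NCOA3* with *NRIP1*, 0.351 for *ESR2* with *NCOA3* and 0.052 for *EGFR* with *NCOA3*. In oocytes *ESR2* with *EGFR* was again the highest, at 0.632, and *NCOA3* with *NRIP1* the lowest, at 0.019. These coefficients share libraries and depth, and on library totals alone the 6 cumulus values were 0.661 to 0.867.

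Among 4484 other genes with a symbol that passed the filter in cumulus cells, those most like *ESR2* over the 19 libraries were *RAI1* (r = 0.768), *NPR2* (0.738) and *NDOR1* (0.733). For *EGFR* they were *MAP1S* (0.856), *SCAF1* (0.845) and *ZNF592* (0.833), for *NCOA3* *PALS1* (0.741), *RB1* (0.736) and *SSH2* (0.732), and for *NRIP1* *CEP97* (0.821) and *B4GALT6* (0.775). *NPR2* encodes the receptor through which cumulus cells respond to C-type natriuretic peptide and hold the oocyte in meiotic arrest. In oocytes, over 4588 genes, the nearest were *SNX15* (0.868), *DNAJC5* (0.853) and *GALNS* (0.842) for *ESR2*, and *IRAK1* (0.882), *TP53I13* (0.851) and *TCEAL1* (0.834) for *EGFR*. They were *SEPHS1* (0.785), *TSNARE1* (0.766) and *MSX2* (0.763) for *NCOA3*, and *P4HA1* (0.840), *SLC25A3* (0.834) and *ID2* (0.830) for *NRIP1*. The median coefficient over all genes lay between -0.049 and 0.205, and these are the highest of all coefficients over genes with a symbol, given as a description. Counting genes without a symbol, up to 13 lay above a named gene. *SSH2* gave 0.122 with *NCOA3* on library totals alone.

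The values that chose the 4 genes are given last, as a description. On the study's co-expression scale (the inverse hyperbolic sine of counts divided by the TMM factor, without division by the library total) the coefficient of oocyte *GSTA1*, a glutathione transferase of steroidogenic cells, with the cumulus gene was 0.859 for *ESR2*, 0.87 for *EGFR*, 0.876 for *NCOA3* and 0.885 for *NRIP1*. Of 12313 cumulus genes, 735 lay at or above 0.85, the gene just inside at 0.850003 and the gene just outside at 0.849986, and the median gene had 0.764. Also on the co-expression scale, the 4 cumulus genes gave coefficients of 0.942 to 0.969 with the log10 cumulus total, and oocyte *GSTA1* gave 0.85. After scaling to the library totals, the coefficients with *GSTA1* were 0.209 for *ESR2*, 0.635 for *EGFR*, -0.275 for *NCOA3* and 0.35 for *NRIP1*. *GSTA1* itself ran from 0 to 235 CPM in oocytes, with a median of 2.44, against a median of 3047 in cumulus cells.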

How the data were processed

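The deposited files hold raw read counts per Ensembl gene, 1 column per library. Per the study's methods and processing notes, the authors trimmed the reads, aligned them to ARS-UCD1.2 with HISAT2 (2.1.0), removed duplicates and counted with featureCounts (1.6.0), and the counts are not normalised. Here edgeR 4.0.16 (R 4.3.3) was run with TMM factors, robust dispersion and quasi-likelihood tests on genes over 2 CPM in at least 9 of 19 libraries, limma 3.58.1 on deviations (prior count 2), and DESeq2 1.42.0 as an alternative. Benjamini-Hochberg adjustment was over all genes tested. Relations used log2(level + 1) and, for oocyte levels with marker sums or depth, 100000 two-sided permutations. Standard errors are edgeR estimates. The number of an oocyte and a cumulus library marks the same complex per the labels. Deviations of same-numbered libraries from their group means correlated at a median of 0.0641 (-0.0148 to 0.134), against -0.000693 for other pairs. Symbols came from the study's supplementary tables (4926 genes), so that lists were matched in part and no theca or leukocyte marker could be matched. Named genes were the 4 members, listed genes past the threshold between BCB classes, the 2 largest rises and falls per list between compartments, and the 3 genes most like each member, of which 1 is not reported here. The members and lists were chosen with earlier results of these data known. The tests were tried on simulated data. Sequences and coordinates were not used here.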

Additional observations from a re-analysis of the deposited data

Results flagged for a closer look

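The highest of the 9 BCB positive cumulus values of *EGFR*, that of complex 72, stood apart from the others at 382 CPM (counts scaled to the library size), the next being 285. Without complex 72 the BCB difference of *EGFR* in cumulus cells was 0.15 in place of 0.24. The highest of the 9 BCB positive oocyte values of *NRIP1* was also that of complex 72, at 16.2 CPM against 8.38 for the next. Its oocyte library had the largest sum of cumulus markers of all 19, and without that complex the BCB difference of *NRIP1* in oocytes was -0.021 in place of 0.21. Of 16 groups tested in this way, chance alone flags about 1 in 20. The BCB difference of *HBEGF* differed between cumulus cells and oocytes by -2.32 on the log2 scale (adjusted p = 0.00464, edgeR), and by -2.11 with the complex as a block (adjusted p = 0.0669, edgeR).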

How the results depend on the processing

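The calls of *ESR2*, *EGFR* and *NRIP1* between cumulus cells and oocytes kept their direction and passed under every alternative run, and that of *NCOA3* under all but the run from 65 to 74 (-0.26). Between BCB classes none of the 4 genes passed under any alternative, though the cumulus counts tested are those by which the genes were chosen. The number of genes called between BCB classes in cumulus cells was 69, and became 360 at a threshold of 0.05, 365 with DESeq2, 216 with the study's joint rule (likelihood-ratio test without TMM and DESeq2), 1704 on library totals, 164 without a filter, 115 with the run as a covariate, 2 with the log10 total as a covariate, 2 without the 4 libraries under 2000000 counts (chosen after seeing the data), and 6 (without complex 24) to 158 (without complex 89) leaving out 1 complex. In oocytes it was 1 with DESeq2. For the difference between compartments it was 251, and became 678 at 0.05, 744 with DESeq2, 642 on library totals, 54 with genes kept in both compartments, 527 in the run from 65 to 74, 54 without the libraries under 2000000 counts, 2 with the replicate block, and 96 (without complex 71) to 368 (without complex 88) leaving out 1. The replicate block changed no call of the 4 genes. The spread test in cumulus cells called 1 gene with deviations from the class mean. No oocyte library held under 2000000 counts, so that alternative was not run for oocytes alone.

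Differences that changed sign did so below the threshold, and the cause was not tested. In cumulus cells *NCOA3* was 0.35 on library totals, 0.34 with the joint rule and 0.10 with the log10 total as covariate, and *ESR2* was -0.017 in the run from 65 to 74, where *HBEGF* in oocytes was 0.094. For the difference between compartments *ESR2* was -0.45 and *EGFR* -0.52 in that run, *NCOA3* 0.26 and *NRIP1* 0.37 on library totals, and *NRIP1* -0.17 to 0.087 leaving out 1 complex. In oocytes leaving out 1 gave -0.023 to 0.10 for *ESR2*, -0.024 to 0.15 for *EGFR* and -0.021 to 0.30 for *NRIP1*. The difference in cumulus spread was 0.00695 for *ESR2* with class means and 0.019 without the libraries under 2000000 counts, 0.051 for *NCOA3* on library totals and 0.12 in the run from 65 to 74, and -0.086 for *NRIP1* on library totals, and that in oocytes was 0.12 for *EGFR* in that run. The coefficient between oocyte and cumulus cells was -0.158 for *ESR2* within BCB negative complexes. As a description, it was 0.703 for *EGFR* within BCB positive complexes and 0.784 in the run from 65 to 74. For *NCOA3* it was -0.225 on library totals, with -0.514 within BCB positive and -0.344 within BCB negative complexes on that scale. Under TMM it was -0.565 within BCB positive and -0.621 within BCB negative complexes. For *NRIP1* it was 0.314 on library totals, 0.621 and 0.464 within the classes, 0.309 without the 2 farthest complexes and 0.324 without complex 72 (chosen after seeing the data). The coefficients with oocyte *GSTA1* became 0.209, 0.635, -0.275 and 0.350 for *ESR2*, *EGFR*, *NCOA3* and *NRIP1* after scaling to library totals. The shallowest cumulus library held 28 counts of *ESR2*.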
